A study of Mus musculus with 6 samples.

Results

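The G1 cyclins, their kinases and the RB-E2F switch that they act on were examined in RNA sequencing of isolated mouse pancreatic islets. The 10 genes were chosen by name: the D-type cyclins Ccnd1, Ccnd2 and Ccnd3, the E-type cyclins Ccne1 and Ccne2, the cyclin-dependent kinases Cdk2, Cdk4 and Cdk6, the retinoblastoma gene Rb1 and the transcription factor gene E2f1. All 10 stand in the deposited count table, which lists 24421 genes. Of the 13736 genes that had enough counts to be tested, 9 were among the 10, and Cdk6 was not tested because its counts were too low.

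The 6 libraries came from islets, the endocrine cell clusters of the pancreas, of mice on a C57BL/6J background. Of these, 3 were labelled control and 3 carried the genotype label C57.DhpsloxP.MIP1-CreERT, described as a knockout restricted to β cells. Dhps encodes deoxyhypusine synthase, the enzyme that starts hypusination of eIF5A, a translation factor, and the title asks how this pathway in β cells bears on facultative proliferation. The labels give no age, sex, diet or tamoxifen schedule, do not say whether control mice carried the Cre transgene, and do not spell out the letters HF in the sample names. Other islet cells lie outside the reach of a Cre driven by the mouse insulin promoter, so a whole-islet library holds RNA from cells that keep Dhps. Separate animals are not stated for the replicates, and p-values therefore measure only the spread between these samples.

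The libraries held 21027737 to 23249895 counts. Dhps, the targeted gene, had 260, 321 and 312 counts across the controls, whereas libraries labelled knockout had 266, 271 and 225, with a log2 fold change of −0.07 ± 0.12 (SE, adjusted p = 0.742 in edgeR's quasi-likelihood test). Because these counts did not separate the groups, directions are given for the libraries labelled knockout. The 12 β cell markers listed summed to 367445 to 496248 CPM per library (CPM: counts per 1e6 counts, TMM-scaled), and 5 of them fell in the libraries labelled knockout, with 7 not called. In each list of other cells at least 1 gene rose and none fell. These were the acinar (1 of 16 tested), duct (2 of 9), stellate and fibroblast (4 of 12), endothelial (4 of 11), myeloid (6 of 13), lymphocyte (1 of 10) and other endocrine (2 of 9) lists. Among all tested genes 4.14% rose and 2.63% fell, or 6.76% called. The acinar share (6.25%) and the lymphocyte share (10%) rested on 1 gene each and lay near it. The acinar count was 14 of 16 without control 3, whose summed acinar level was 1091 CPM. With 1 library left out the β cell markers that fell numbered 0 (without control 2 or knockout-labelled replicate 1) to 7 (without control 1), and the myeloid markers that rose 2 (without control 2 or knockout-labelled replicate 1) to 6. No marker in these lists was at 0 in all 6 libraries. The summed acinar level was 1091 to 11920 CPM in controls and 28366 to 32532 in the libraries labelled knockout, and the summed myeloid level was 187 to 191 and 308 to 407 CPM. The duct sums were 937 to 1254 and 1439 to 1835 CPM, the stellate and fibroblast sums 97.8 to 336 and 371 to 469, the endothelial sums 390.2 to 506 and 551 to 649.9, the other endocrine sums 47435 to 64315 and 68790 to 81187, and the lymphocyte sums 11.1 to 19.6 and 9.77 to 82.0. The part of these cells in the results below was not tested. In bulk tissue, fewer cells of a type and less RNA per cell cannot be told apart.

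A cell commits to division late in G1. D-type cyclins, made in response to growth signals, activate CDK4 and CDK6, which begin to phosphorylate the retinoblastoma protein and so loosen its hold on E2F factors. E2F then drives transcription of E-type cyclins and of the replication machinery, and cyclin E with CDK2 completes the phosphorylation of RB. In mouse β cells cyclin D2 and CDK4 are the best known partners: mice that lack either one have too few β cells after birth.

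None of the cell cycle entry genes differed between the groups by the test across all genes. Of the 9 tested, 0 rose and 0 fell at an adjusted p under 0.05, where 6.76% of all tested genes were called, 4.14% rising and 2.63% falling. With only 9 genes, a count of 0 says little beside 6.76%. The count at an unadjusted p under 0.05 was also 0 of 9, against 26.5% of all tested genes. DESeq2 and limma-voom called 0 of the 9 as well. The count at an unadjusted p under 0.05 depended on the setting. It was 1 (Cdk2) with limma-voom or upper-quartile factors, and 2 (Cdk2 and E2f1) without control 1. Their median log2 fold change was 0.16 beside 0.01 for all tested genes, with 6 positive and 3 negative values. The groups did not overlap for 2 of the 9, Ccne1 and Cdk2, both higher in the libraries labelled knockout. Among all tested genes 32.1% had groups that did not overlap, 16.9% with the libraries labelled knockout higher and 15.2% with them lower.

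**Figure D1:**
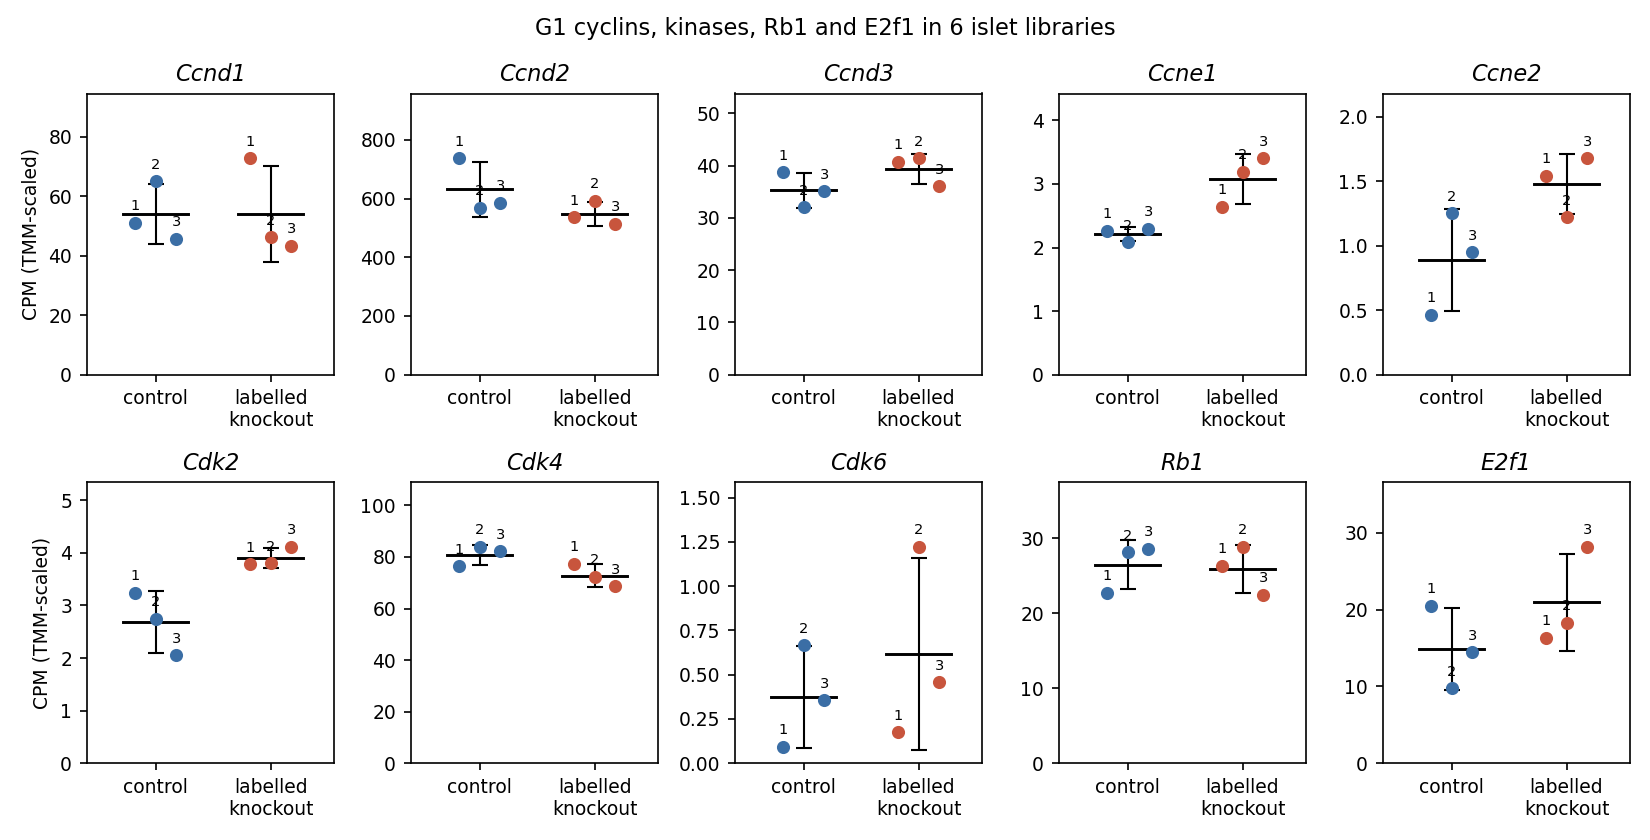
Level of each gene in CPM (TMM-scaled, linear axes from 0) in 3 control and 3 knockout-labelled islet libraries; points are libraries with their replicate number, horizontal lines are means and bars are SD. Only Ccne1 and Cdk2 have groups that do not overlap, and both lie under 5 CPM.

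The abundance of the 10 transcripts spanned a wide range. Levels between genes are compared per length, as CPM per kilobase of the exon model (RPKM), averaged over the 6 libraries. Ccnd2 was the most abundant at 102 RPKM (range 89.0 to 128), above 97.4% of tested genes, and Cdk4 followed at 57.1 RPKM (51.0 to 62.4). Ccnd3 (16.5 RPKM) and Ccnd1 (14.2) came next, and their ranges overlapped. E2f1 (5.79 RPKM) and Rb1 (5.66) could not be ordered, since E2f1 was above Rb1 in 2 of the 6 libraries. Cdk2 and Ccne1, both at 1.35 RPKM, also shared their range. Ccne2 (0.3675 RPKM) and Cdk6 (0.200) were lowest, with overlapping ranges. The 2 most abundant transcripts are those of the partners that act first, cyclin D2 and CDK4. The summed D-type level exceeded the summed E-type level by 51.5-fold to 122-fold per library.

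Ccnd2 encodes cyclin D2. The gene lies on chromosome 6 from 127125709 to 127151048 on the minus strand (mm10) with 5 exons, and its 10116 to 15931 counts per library made it the most precisely counted of the group. Its levels were 737, 569.7 and 587 CPM in the controls and 537, 592 and 514 CPM in the libraries labelled knockout. Control 1 stood highest, and knockout-labelled replicate 2 lay above controls 2 and 3, so the groups overlapped. The mean was 631 ± 92.2 CPM against 548 ± 40.2 (SD, n = 3 each), a log2 fold change of −0.20 ± 0.14 (SE, adjusted p = 0.387). The 95% interval of the fold ran from 0.698 to 1.08, so a fall by more than that lower bound lay outside it. Without control 1 the log2 fold change was −0.08 (adjusted p = 0.766).

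Ccnd1, the cyclin D1 gene (chromosome 7, 144929931 to 144939925, 5 exons), showed no direction. It was at 51.0, 65.1 and 45.6 CPM in the controls and 72.7, 46.2 and 43.4 CPM in the libraries labelled knockout. The highest and the lowest value both came from libraries labelled knockout. The log2 fold change of 0.01 ± 0.20 (adjusted p = 0.989) turned to −0.27 without knockout-labelled replicate 1. It was negative in 8 of the 16 alternative fits. With the myeloid marker score of each library as a covariate it was 0.80 ± 0.82 (adjusted p = 0.758). That score separated the groups, so the fit can hardly tell score from group.

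Ccnd3, the cyclin D3 gene (chromosome 17, 47505051 to 47599688, 7 exons), was at 38.7, 32.0 and 35.1 CPM in the controls and 40.8, 41.4 and 36.1 CPM in the libraries labelled knockout. Knockout-labelled replicates 1 and 2 were above every control, and replicate 3 was below control 1. Its log2 fold change was 0.16 ± 0.11 (adjusted p = 0.375, interval of the fold 0.946 to 1.32). Its exon model shares 358 of 2260 bp with Bysl, which had a mean of 382 counts, and reads from the shared stretch cannot be assigned to either gene.

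Among the D-type transcripts, cyclin D2 made up 80.7%, 75.9% and 78.7% of the summed level per length in the controls. It made up 71.4%, 77.1% and 76.5% in the libraries labelled knockout. The groups overlapped, with a difference of −3.43 percentage points (exact two-sided permutation p = 0.3, adjusted p = 0.4 over 4 ratios, smallest possible p 0.1). Without knockout-labelled replicate 1 the difference was −1.65 percentage points. The cyclin D3 share was 10.8%, 10.9% and 12.0% across the controls, and libraries labelled knockout had 13.9%, 13.8% and 13.7%. That share did not overlap between the groups. It was picked out after its values were seen and was not tested.

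Cdk4 encodes the kinase that partners the D-type cyclins in β cells (chromosome 10, 127063603 to 127067282, 8 exons). Its levels were 76.4, 83.9 and 82.3 CPM in the controls and 77.4, 72.3 and 68.7 CPM in the libraries labelled knockout. Knockout-labelled replicate 1 lay above control 1, so the groups overlapped by that pair alone. Cdk4 had a log2 fold change of −0.15 ± 0.09 (adjusted p = 0.328), and the interval of the fold ran from 0.780 to 1.04.

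Cdk6, the other kinase of the D-type cyclins (chromosome 5, 3344312 to 3522225, 7 exons), was close to the detection limit. Its counts were 2, 16 and 9 across the controls. Libraries labelled knockout had 4, 26 and 9. The groups overlapped, and Cdk6 was not tested after the filter on low counts. The library with the most Cdk6 counts, knockout-labelled replicate 2, also had the highest summed lymphocyte marker level, 82.0 CPM against 9.77 to 22.3 in the other 5 libraries, and the link between them was not tested. Control 2, with the next highest Cdk6 count, had 19.6 CPM of those markers. The other libraries did not keep this order. Control 1 had 18.4 CPM with 2 Cdk6 counts, and knockout-labelled replicate 3 had 22.3 CPM with 9. Control 3 had 11.1 CPM with 9 counts, and knockout-labelled replicate 1 had 9.77 CPM with 4.

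None of the E-type cyclins Ccne1 and Ccne2 and their kinase Cdk2 passed the test. Ccne1, the cyclin E1 gene (chromosome 7, 38097984 to 38107490, 12 exons), had 49, 50 and 58 counts across the controls, or 2.27, 2.08 and 2.29 CPM. Libraries labelled knockout had 60, 68 and 67 counts, or 2.64, 3.20 and 3.40 CPM. All 3 libraries labelled knockout were above all 3 controls. The log2 fold change was 0.47 ± 0.26 (adjusted p = 0.271, interval of the fold 0.932 to 2.07).

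Cdk2, the kinase of the E-type cyclins (chromosome 10, 128697939 to 128705051, 8 exons), had 70, 66 and 52 counts across the controls, and libraries labelled knockout had 86, 81 and 81. In CPM these were 3.24, 2.75 and 2.06 against 3.78, 3.81 and 4.11, again without overlap. Its log2 fold change of 0.54 ± 0.25 had the smallest p-value of the group and did not pass (adjusted p = 0.203, interval of the fold 0.986 to 2.15).

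Ccne2, the cyclin E2 gene (chromosome 4, 11191351 to 11204779, 13 exons), was at 0.463, 1.25 and 0.949 CPM in the controls and 1.54, 1.22 and 1.68 CPM in the libraries labelled knockout, from 10 to 35 counts. Control 1 was lowest, and control 2 lay above knockout-labelled replicate 2. The log2 fold change was 0.73 ± 0.43 (adjusted p = 0.309). More of this gene than of any other in the group is shared: 1734 of its 3220 bp lie in exons of Ints8, a gene with a mean of 441 counts, so its level is uncertain.

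The upstream stretches of Cdk2, Ccne1 and Cdk4 are shown because the first 2 were the genes whose groups did not overlap and the third is the most abundant kinase. None of the 3 was called. Each is the 250 bases before the transcription start in RefSeq (GRCm38.p6, the assembly called mm10), read 5′ to 3′ on the gene's strand. They span chr10:128705052-128705301 (minus strand), chr7:38107491-38107740 (minus strand) and chr10:127063285-127063534 (plus strand). The Cdk2 and Ccne1 starts coincide with the edge of the deposited gene model, and the Cdk4 start lies 68 bp before it. Capitals mark matches to the E2F letters TTTCCCGC, TTTCGCGC, TTTGCCGC or TTTGGCGC on either strand, or to the E-box CACGTG, the palindrome bound by MYC and related factors.
Cdk2: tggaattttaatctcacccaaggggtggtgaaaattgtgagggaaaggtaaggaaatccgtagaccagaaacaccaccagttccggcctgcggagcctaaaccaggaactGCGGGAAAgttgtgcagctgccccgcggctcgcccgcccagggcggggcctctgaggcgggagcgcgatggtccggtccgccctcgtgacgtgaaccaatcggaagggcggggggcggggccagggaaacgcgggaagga
Ccne1: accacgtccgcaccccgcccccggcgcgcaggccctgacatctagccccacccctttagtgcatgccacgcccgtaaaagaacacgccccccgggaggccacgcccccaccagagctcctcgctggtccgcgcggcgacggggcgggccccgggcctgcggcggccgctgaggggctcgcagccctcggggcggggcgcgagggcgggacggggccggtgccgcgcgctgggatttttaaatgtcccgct
Cdk4: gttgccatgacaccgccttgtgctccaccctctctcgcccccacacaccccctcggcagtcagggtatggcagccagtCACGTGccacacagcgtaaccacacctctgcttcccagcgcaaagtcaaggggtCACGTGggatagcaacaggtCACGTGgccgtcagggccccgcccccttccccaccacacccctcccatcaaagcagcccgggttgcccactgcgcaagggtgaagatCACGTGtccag
Cdk2 held 1 E2F match, GCGGGAAA, which is TTTCCCGC on the other strand and starts 140 bases before the start site. Ccne1 held none of these letters in its window. Cdk4 held no E2F match and 4 E-boxes, which begin 172, 118, 98 and 11 bases before the start site. Over 32851 RefSeq windows of the same length, 1.86% held an E2F match and 6.02% held an E-box. None of the 3 windows held both an E2F match and an E-box. A match describes letters and is not evidence of binding. A RefSeq window was found for 6 of the 10 genes, and not for Ccnd1, Ccnd2, Ccne2 and Rb1. Of the windows not shown, Cdk6 held 1 E-box and no E2F match, and those of Ccnd3 and E2f1 held neither. The E2f1 start lies 466 bp inside the deposited gene model.

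Late and early genes were set against each other within each library, as ratios that need no scaling between libraries. With 3 libraries against 3, an exact permutation test cannot go below p = 0.1. The log2 ratio of the summed E-type to the summed D-type level per length was −6.92, −6.48 and −6.46 across the controls. Libraries labelled knockout had values of −6.16, −6.05 and −5.69. The groups did not overlap, with a difference of 0.66 (exact two-sided permutation p = 0.1, adjusted p = 0.2 over 4 ratios). Without 1 library in turn the difference stayed between 0.51 and 0.76. Whether reads shared by Ccne2 and Ints8 were counted is not given, so the Ccne2 part of this ratio is uncertain. Ccne1 carried 73.3% to 89.0% of the E-type level.

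The share of Cdk2 in the summed level of Cdk2, Cdk4 and Cdk6 was 2.29%, 1.77% and 1.36% in the controls. In the libraries labelled knockout it was 2.63%, 2.81% and 3.20%, above every control (difference 1.07 percentage points, exact two-sided permutation p = 0.1, adjusted p = 0.2). Cdk4 still made up 96.3% to 98.4% of that sum in every library.

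**Figure D2:**
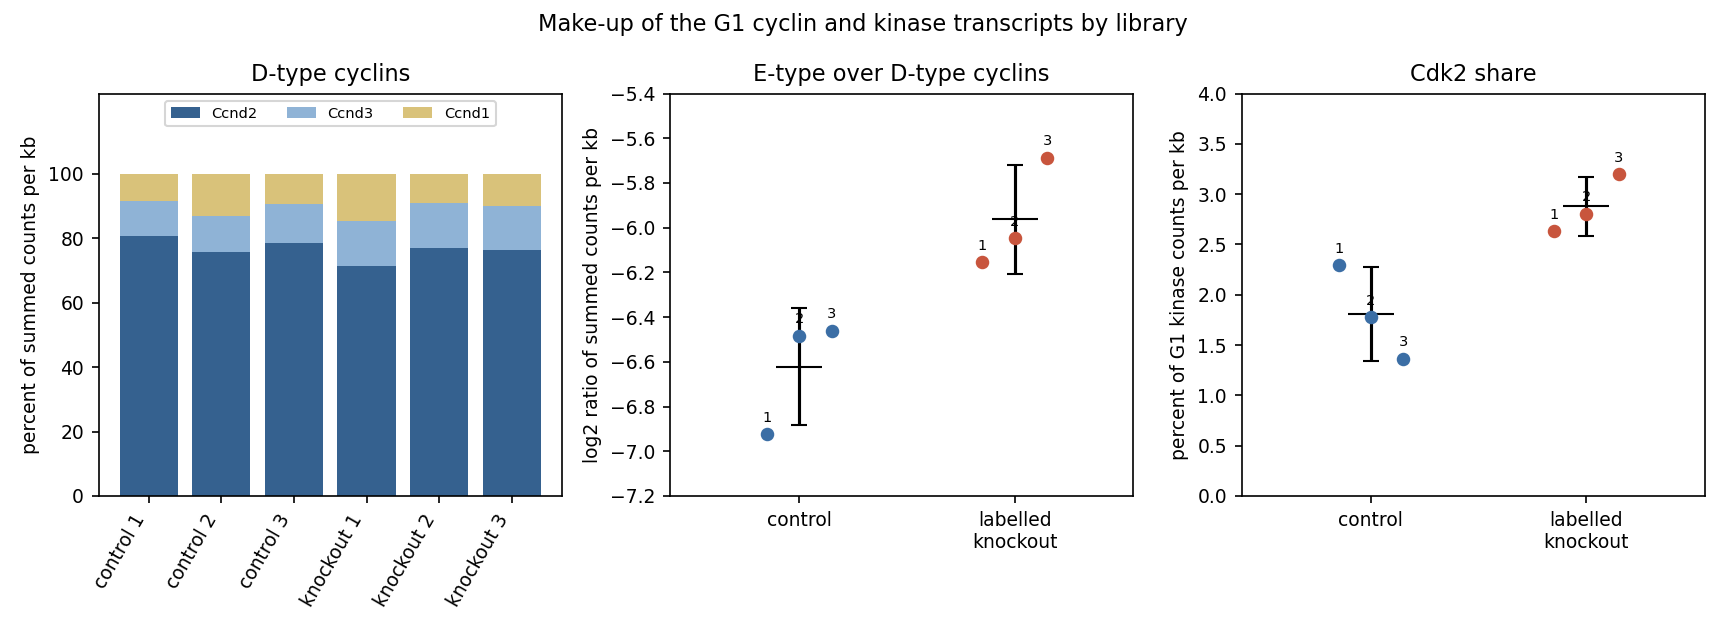
Left, percent of the summed D-type cyclin counts per kilobase from Ccnd2, Ccnd3 and Ccnd1 in each library; middle, log2 ratio of summed E-type to D-type counts per kilobase; right, percent of G1 kinase (Cdk2, Cdk4, Cdk6) counts per kilobase from Cdk2. Points are libraries with their replicate number and bars are mean and SD; the ratio and the Cdk2 share do not overlap between groups, while Ccnd2 makes up 71.4% to 80.7% of the D-type level throughout.

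Rb1, the brake on this switch (chromosome 14, 73195502 to 73325791, 27 exons), was at 22.7, 28.1 and 28.6 CPM in the controls and 26.4, 28.9 and 22.4 CPM in the libraries labelled knockout. Each group held both a low and a high library. Rb1 had a log2 fold change of −0.03 ± 0.13 (adjusted p = 0.902), and the interval of the fold ran from 0.799 to 1.20. With the myeloid marker score as a covariate the log2 fold change was −0.89 ± 0.46 (adjusted p = 0.538). With the acinar score it was 0.14 ± 0.20 (adjusted p = 0.865). Both scores separated the groups, so these fits can hardly tell score from group.

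E2f1, which encodes an activator of S phase genes (chromosome 2, 154559400 to 154569892, 8 exons), varied more between libraries. It was at 20.5, 9.75 and 14.4 CPM in the controls and 16.4, 18.3 and 28.2 CPM in the libraries labelled knockout. Control 1 lay above knockout-labelled replicates 1 and 2, so the groups overlapped. The log2 fold change was 0.49 ± 0.27 (adjusted p = 0.269). It was 0.79 without control 1 (adjusted p = 0.0874) and 0.22 without knockout-labelled replicate 3 (adjusted p = 0.665). The log2 ratio of E2f1 to Rb1 per length ran from −0.95 to 0.43 in the controls and from −0.11 to 0.91 in the libraries labelled knockout (difference 0.55, exact two-sided permutation p = 0.4). That difference was 0.22 without knockout-labelled replicate 3, 0.23 without control 2 and 0.92 without control 1.

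The wider RB and E2F family had 11 further genes, all tested. None was called by edgeR (1 without control 1) or by limma-voom, 4 had an unadjusted p under 0.05 (26.5% of all tested genes did), and DESeq2 called 1. E2f7 (log2 fold change 1.17 ± 0.42, adjusted p = 0.113) and E2f8 (1.14 ± 0.35, adjusted p = 0.0772), the atypical E2Fs that repress E2F targets, had the highest values. E2f2, an activator like E2f1, was at 4.998, 3.17 and 3.52 CPM in the controls and 5.81, 7.42 and 6.35 CPM in the libraries labelled knockout (0.75 ± 0.23, adjusted p = 0.0720). For these 3 genes the libraries labelled knockout were all above the controls, as for 16.9% of all tested genes, and for Rbl2 and E2f5 they were all below, as for 15.2%. The pocket protein genes Rbl1 (−0.06 ± 0.21) and Rbl2 (−0.25 ± 0.10), the repressor-type E2f4 (−0.11 ± 0.10), E2f5 (−0.21 ± 0.12) and E2f6 (−0.08 ± 0.12), the activator E2f3 (0.24 ± 0.35) and the E2F partners Tfdp1 (0.14 ± 0.11) and Tfdp2 (0.05 ± 0.13) did not pass. Rbl2 shares 418 bp of exon with Aktip, a gene with a mean of 1259 counts. The family's median was 0.05.

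Of the inhibitors of these kinases, 1 of 6 tested rose and 0 fell, a share of 16.7% beside 4.14% rising among all tested genes. Cdkn1a, which encodes p21, an inhibitor of cyclin-CDK complexes, was at 48.5, 41.2 and 34.4 CPM in the controls and 186, 103 and 121 CPM in the libraries labelled knockout. The lowest library labelled knockout was above the highest control by a wide margin. The log2 fold change was 1.72 ± 0.21 (adjusted p = 0.00720), and it passed without each library in turn (adjusted p 0.00795 to 0.0362). The p27 gene Cdkn1b (−0.31 ± 0.14, adjusted p = 0.188) and the INK4 gene Cdkn2b (−0.31 ± 0.13, adjusted p = 0.170) did not pass. For both, the libraries labelled knockout were all below the controls, as for 15.2% of all tested genes. Cdkn2c (0.49 ± 0.19), Cdkn2d (−0.05 ± 0.14) and Cdkn1c (0.05 ± 0.24) did not pass either, and Cdkn2a had too few counts to be tested. The 6 genes had a median of 0.00.

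A further 16 genes activate the kinases or turn the cyclins over, such as the CDK-activating kinase and the ubiquitin ligases that degrade cyclins D and E. None of the 16 was called by the main edgeR fit or limma-voom, where 6.76% of all tested genes were called by the main fit. DESeq2 called 1, and edgeR called 1 with no expression filter, with a replicate block or without control 1. The count at an unadjusted p under 0.05 was 2, beside 26.5% of all tested genes. Their median log2 fold change was −0.04.

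Growth signals that feed the D-type cyclins moved in both directions. Of 17 genes, 1 rose, 3 fell and 13 were not called, beside 4.14% of all tested genes rising and 2.63% falling. The rising count was 2 with DESeq2, RLE or upper-quartile factors, acinar and hormone genes removed, or other expression filters. The falling count stayed at 3 there, apart from 4 with DESeq2. Igf1r, the IGF1 receptor gene, was higher without overlap, as were 16.9% of all tested genes. It just missed the threshold (log2 fold change 0.55 ± 0.14, adjusted p = 0.0500042). An unadjusted p under 0.05 was reached by 4 with higher and 7 with lower values, where 26.5% of all tested genes reached it. Myc, a transcription factor gene induced by mitogens, was at 11.4, 16.0 and 10.4 CPM in the controls and 27.5, 24.8 and 19.2 CPM in the libraries labelled knockout (0.92 ± 0.19, adjusted p = 0.0273). Irs2, an adaptor of the insulin and IGF receptors, fell from 236 ± 26.3 to 144 ± 31.3 CPM (−0.71 ± 0.16, adjusted p = 0.0355). Nfatc2, a calcineurin-regulated factor, fell by 0.53 ± 0.12 on the log2 scale (adjusted p = 0.0343). Stat5b, which relays prolactin and growth hormone signals, fell by 0.37 ± 0.09 (adjusted p = 0.0360). Each of these calls was lost without some single libraries. Myc passed without controls 1 or 2 or knockout-labelled replicate 3, Nfatc2 without control 1 or knockout-labelled replicate 2, and Irs2 and Stat5b only without control 1.

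**Figure D3:**
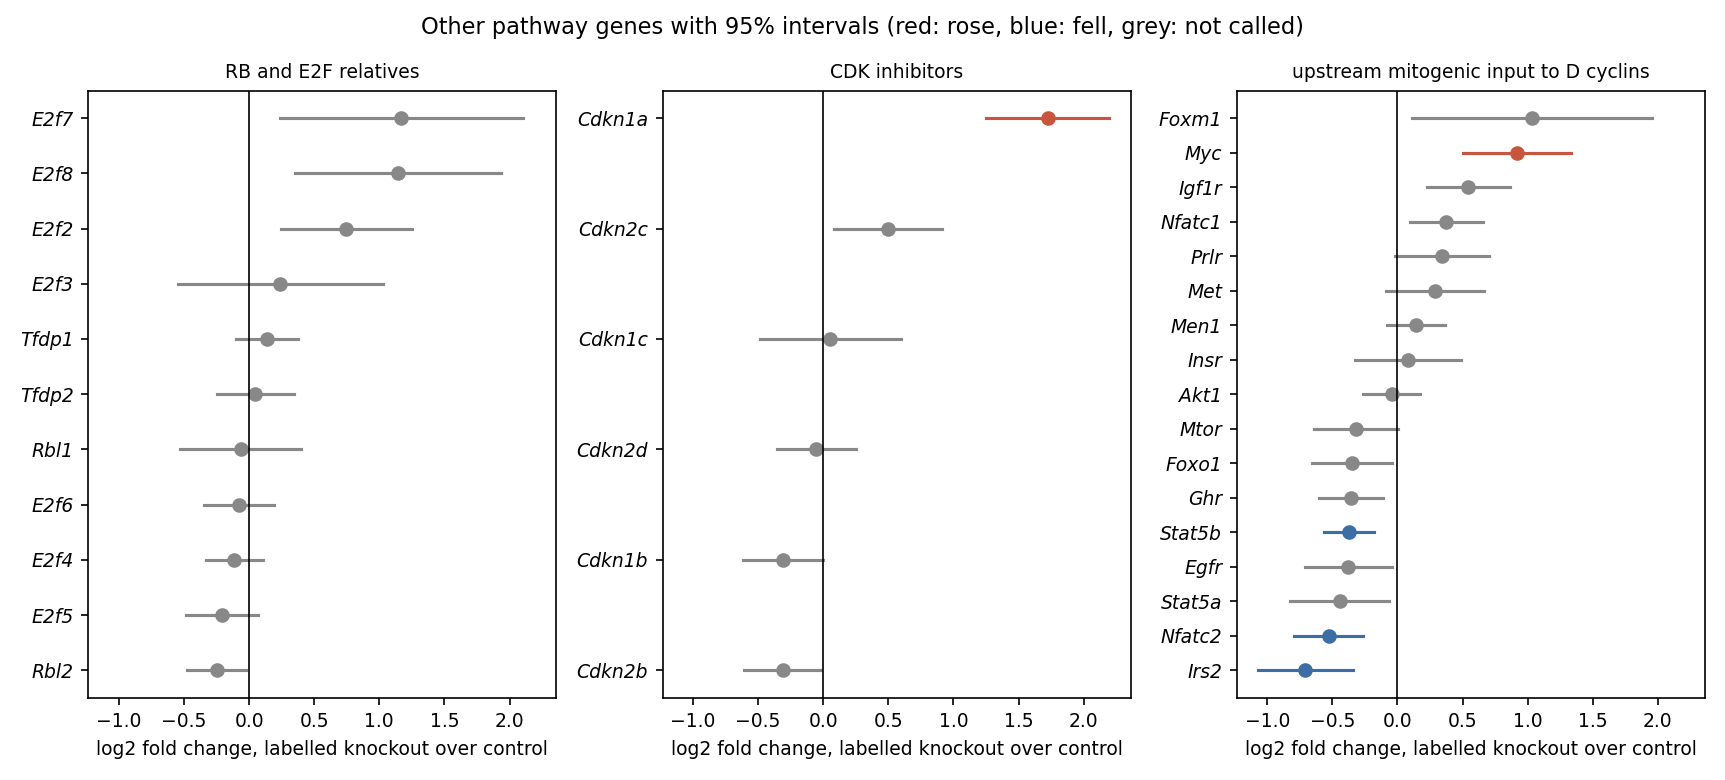
Log2 fold changes (labelled knockout over control) with 95% intervals for the tested RB and E2F relatives, CDK inhibitors and mitogenic inputs to the D-type cyclins; red marks genes that rose, blue those that fell and grey those not called at an adjusted p of 0.05. Cdkn1a and Myc are the genes that rose, and Irs2, Nfatc2 and Stat5b those that fell.

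Among the S phase genes that E2F drives, most of those tested rose. Of 20 tested, 11 rose, 0 fell and 9 were not called, or 55% rising beside 4.14% of all tested genes. The list was chosen with earlier results of these data known, so this share is not an independent test. The median log2 fold change was 0.79, and 19 of the 20 values were positive. Mcm5, a subunit of the replication helicase, was at 4.35, 2.67 and 3.12 CPM in the controls and 9.72, 11.4 and 13.7 CPM in the libraries labelled knockout (1.78 ± 0.22, adjusted p = 0.00720). The ribonucleotide reductase genes Rrm2 (1.60 ± 0.21, adjusted p = 0.00892) and Rrm1 (0.83 ± 0.13) and the helicase gene Mcm6 (0.79 ± 0.13) also rose. Rrm1 lost its call without control 2 or knockout-labelled replicate 1, and Mcm6 without control 2 or control 3. Among the proliferation markers 7 of 8 rose, and Mki67 went from 2.04, 0.333 and 1.15 CPM to 5.15, 5.45 and 3.96 CPM (2.06 ± 0.48, adjusted p = 0.0363). With 1 library left out, Mki67 passed only without control 1. The count of 7 proliferation markers stayed at 7 without control 1, was 3 and 1 without knockout-labelled replicates 2 and 3, and was 0 without control 2, control 3 or knockout-labelled replicate 1.

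The number of S phase genes that rose depended on the libraries used. It was 9 without control 1, 2 without control 2 and 4 without control 3. Without knockout-labelled replicates 1, 2 and 3 it was 3, 5 and 5. With the acinar or the myeloid marker score of each library as a covariate it was 0, with medians of 0.68 and 0.67 and with 8 and 3 genes at an unadjusted p under 0.05. With either score no gene of the inhibitor or growth signal lists was called, and Cdkn1a had an adjusted p of 0.225 (acinar) and 0.305 (myeloid). Both scores separated the groups, so these fits can hardly tell score from group. Whether the S phase genes differ from the entry genes in their response was not tested.

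**Figure D4:**
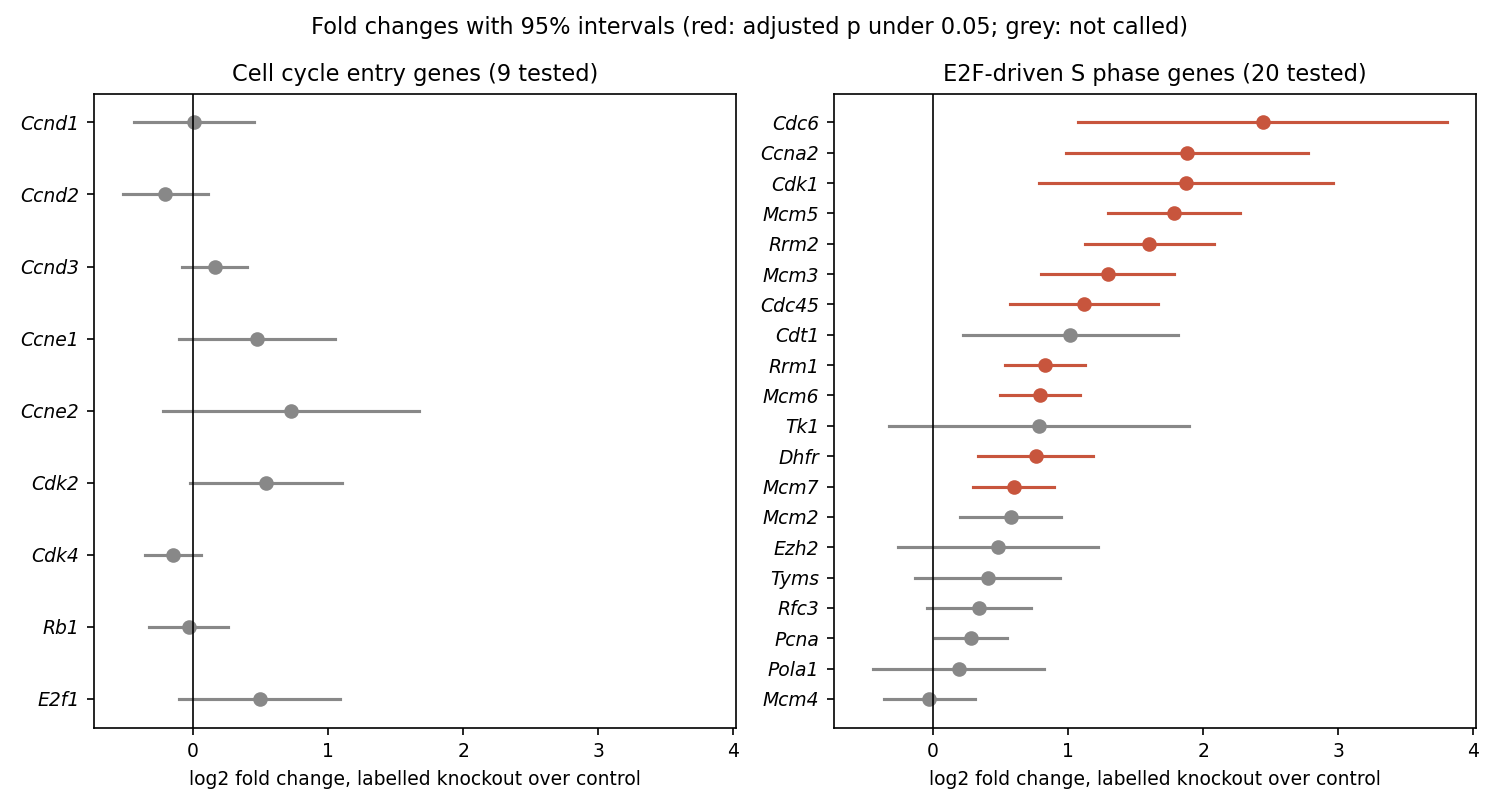
Log2 fold changes (labelled knockout over control) with 95% intervals for the 9 tested cell cycle entry genes and the 20 tested E2F-driven S phase genes; red marks an adjusted p under 0.05. All 9 entry intervals cross 0, and 11 S phase genes rose.

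Genes whose level followed Ccnd2 or Ccne1 most closely were found by the mean absolute difference of centred log2 CPM over the 6 libraries, among 10001 genes. The group difference is part of this measure, so similar fold changes follow from the selection. For Ccnd2 they were Jade1 (0.0301), Inha (0.0316) and Rab3ip (0.0356), none of which was called. For Ccne1 they were Shisa5 (0.0332), Timm17b (0.0452) and Thbs3 (0.0481). Shisa5 (log2 fold change 0.42, adjusted p = 0.04997) and Timm17b (0.42, adjusted p = 0.0392) rose, and Thbs3 (0.41, adjusted p = 0.109) was not called. Shisa5 and Timm17b each lost the call whichever library was left out, and Shisa5 also lost it with RLE factors (adjusted p = 0.0510), limma-voom (0.0509) and acinar and hormone genes removed (0.0506).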

How the data were processed

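The deposited table holds raw counts per gene for 6 islet libraries, made by the authors with STAR 2.4.2a and featureCounts (Subread 1.5.0) on mm10, per the submitters' processing notes; edgeR is also named there. The annotation and the strand and multi-mapping settings: not given in the sources used here. Libraries were poly-dT primed from low RNA input by SMART-Seq v4, per the labels' protocols, so rare transcripts carry amplification noise and overlapping genes cannot be told apart by strand. Gene lengths come from the deposited table.

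Counts were tested over all genes in edgeR 4.0.16 (R 4.3.3) with TMM factors, filterByExpr for the 2 groups, a quasi-likelihood model with group as the only term, and Benjamini-Hochberg adjustment at 0.05. SEs derive from the fold change and the F value. DESeq2 1.42.0 and limma-voom (limma 3.58.1) were alternatives, beside other factors and filters, a replicate block, marker scores (mean log2 CPM of the acinar or myeloid list) as covariates, and leaving out each library with the tested genes held fixed. Shared exon bases were counted with GenomicRanges 1.54.1 on either strand. Ratios were compared by exact permutation tests. The members, lists and rules were chosen with earlier results of these data known. Named genes were the members, Dhps, Mki67, all RB-E2F relatives and CDK inhibitors, up to 4 called genes with the smallest p of each other pathway list, and the 3 genes closest to Ccnd2 and to Ccne1 (mean log2 CPM 2 or more), passing over predicted genes. Igf1r was added because its adjusted p lay next to the threshold. On simulated data with 200 changed genes among 13736, the fit recovered 24% of 1.5-fold, 64% of 2-fold, 96% of 4-fold and 98% of 8-fold changes, and 11 of 152 calls were false. Each library counted as 1 sample. No 2 libraries of a group agreed within counting noise (chi-square per degree of freedom 10.8 or more). In amplified libraries this check cannot show that they came from separate animals.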

Additional observations from a re-analysis of the deposited data

How the results depend on the processing

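The count of cell cycle entry genes called was 0 in every alternative run, including each library left out (0 to 0). On simulated data, with changed genes drawn at random from all tested genes, the fit recovered 24% of 1.5-fold and 64% of 2-fold changes. The entry genes differ widely in counts, so these rates do not describe them one by one. Among all tested genes 929 were called, 1702 with DESeq2, 1413 with no expression filter, 0 with the acinar score and 1 with the myeloid score as a covariate (1323 and 1404 at an unadjusted p under 0.05), and 60 to 1028 with 1 library left out. The S phase count of 11, whose alternatives were added after the data were seen, was 0 with either score and 2 to 9 with 1 library left out. These fits with a score have 1 term more for the same 6 libraries, and both scores separated the groups. The acinar score was 3.76 to 6.86 in controls and 7.76 to 8.09 in the libraries labelled knockout. The myeloid score was 3.12 to 3.29 and 4.01 to 4.39. Such fits can hardly tell score from group, and the SE of Ccnd1 went from 0.20 to 0.82 with the myeloid score. The lower counts therefore do not show what other cells contribute, and their cause was not tested.

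Values near 0 turned sign. Ccnd1 (0.01) was −0.0025 with acinar and hormone genes removed, −0.16 with the acinar score, −0.014 with limma-voom, −0.0137 with no expression filter, −0.018 with a replicate block, and −0.27 to 0.15 with 1 library left out. Rb1 (−0.03) was 0.14 with the acinar score and −0.13 to 0.059 with 1 library left out. With the myeloid score Ccnd1 was 0.80, Rb1 −0.89 and Ccnd3 (0.16) −0.12. Ccnd2, Cdk4, Ccne1, Ccne2, Cdk2 and E2f1 kept their sign in all 16 alternatives, but the values of Cdk2 (0.12 to 1.27), E2f1 (0.22 to 1.56) and Ccne2 (0.43 to 1.41) moved widely. With a replicate block the test called 826 genes across the table, 8 S phase genes and 0 entry genes, and the calls of Stat5b (adjusted p = 0.0637), Shisa5 (0.0554) and Timm17b (0.0609) were lost. The labels do not say that a number pairs libraries, and the deviations of same-numbered libraries correlated at −0.04, −0.01 and 0.05. Of the 6 libraries, 2 correlated best with the library of their own number. Each of the 4 ratios kept its direction in the 8 alternatives run. Cdk6 had a value only with no expression filter (log2 fold change 0.69, adjusted p = 0.626).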
